A study of Oncorhynchus mykiss with 525 samples.

Results

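A set of 100 genes was followed that were low in rainbow trout gill cells at the highest concentration (conc 1) of each of 3 chemicals, coded dip, met and col. The set was taken from 5223 genes with a solvent level of 20 to 1000 CPM (counts scaled to the well's or group's total) in both sets of solvent wells, out of 44260 gene IDs. For each gene the counts of all wells of a group were summed and set against those of the solvent wells as a log2 ratio of CPM + 5, called L. The 100 genes were selected on these measured values, as those with the lowest maximum of L over dip, met and col conc 1. Their low level in those 3 groups is therefore how they were chosen and is given as a description, with no test. The wells at all other concentrations and of the other 16 chemicals played no part in the choice.

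RTgill-W1 is a continuous epithelial line from rainbow trout gill, used in a standard test of acute toxicity in fish. The cells were exposed for 24 h to a chemical or to the solvent DMSO alone, and every chemical except dca was run at 8 concentrations with 3-fold steps, each on 3 plates that held 3 passages. The groups used here are dip, met and col at conc 1 to 8 (conc 1 at 57.64, 56.47 and 3.99 in the labels, which give no unit), 16 further chemicals, of which dca had 5 concentrations in 2-fold steps on all 6 plates, and solvent wells, 24 on the plates of met and col and 15 on those of dip. All groups share the cell line and the 24 h, and the design text has the chemicals prepared in DMSO or water without saying which. The wells of a concentration sat at the same position on each of its plates, except for dca and diz, and conc 1 of a chemical other than dca was in plate row H. The tables name genes by Ensembl ID only. Of these IDs, 0 matched the table of gene names used here, so no gene carries a name or a role below and gill markers could not be looked up.

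The gill surface takes up oxygen and exchanges ions, and it is the first tissue to meet a chemical dissolved in water. The level of an RNA in a culture depends on its synthesis and its decay, and a CPM value is a share of the counted RNA, so it says nothing of the amount in a well. The trout genome keeps many near-identical gene pairs from a whole-genome duplication of the salmonid ancestor, so reads can be shared between copies. Among the 100 genes, 0 pairs had equal counts in over 90% of the wells. Copies that share reads can still differ by counting error, so this does not show whether reads were shared. The closest pair, ENSOMYG00000027172 and ENSOMYG00000039961, correlated across wells with an r of 0.856. This is a description over wells that share depth and plates. They include the conc 1 wells in which both genes were chosen as low, which adds to r.

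Of 501 wells, 487 held at least 10% of the median total of 240948 counts and were kept, with totals of 24620 to 786151. The 4 most counted IDs took 46.3% of all counts, and CPM here is scaled to the remaining counts. In these bulk wells fewer cells and less RNA per cell cannot be told apart. Some wells stood apart. At col conc 1 to 4 the wells of replicate 2 held too few counts and were left out, which leaves 2 wells per concentration. Of the 3 wells at met conc 1, replicate 2, with 48188 counts, lay closer to solvent than the other 2. The median L of the set at met conc 1 is given with and without it. The other pooled values at met conc 1 include it. The kept col wells at conc 1 to 4 held 27.8% to 48.3% of their library's median total, as group medians, and 60.0% to 64.2% of their counts fell on the 4 most counted IDs, against 41.6% to 46.1% at conc 6 to 8. The part of depth in the results on col was not tested, except where thinned wells are given.

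At conc 1 the 100 genes together took 0.317% of the counts left after the 4 IDs in dip wells, 0.227% in met wells and 0.134% in col wells. Their summed level was 2807, 3234 and 3498 CPM in the 3 dip conc 1 wells, against 18498, 20122 and 23408 CPM (lowest, median and highest) in the 15 solvent wells of the same plates. It was 1146, 5405 and 1004 CPM in the met conc 1 wells and 1423 and 1234 CPM in the col conc 1 wells, against 14793, 18562 and 22871 CPM in the 24 solvent wells of those plates. All 8 wells lay below every solvent well, as the choice of the genes implies. Set against conc 6 to 8 on the same plate, the dip wells stood at 15.5%, 15.6% and 15.7%, so the 3 passages differed little. The met wells stood at 5.56%, 33.3% and 5.83%, and the col wells at 6.47% and 7.13%.

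**Figure D1:**
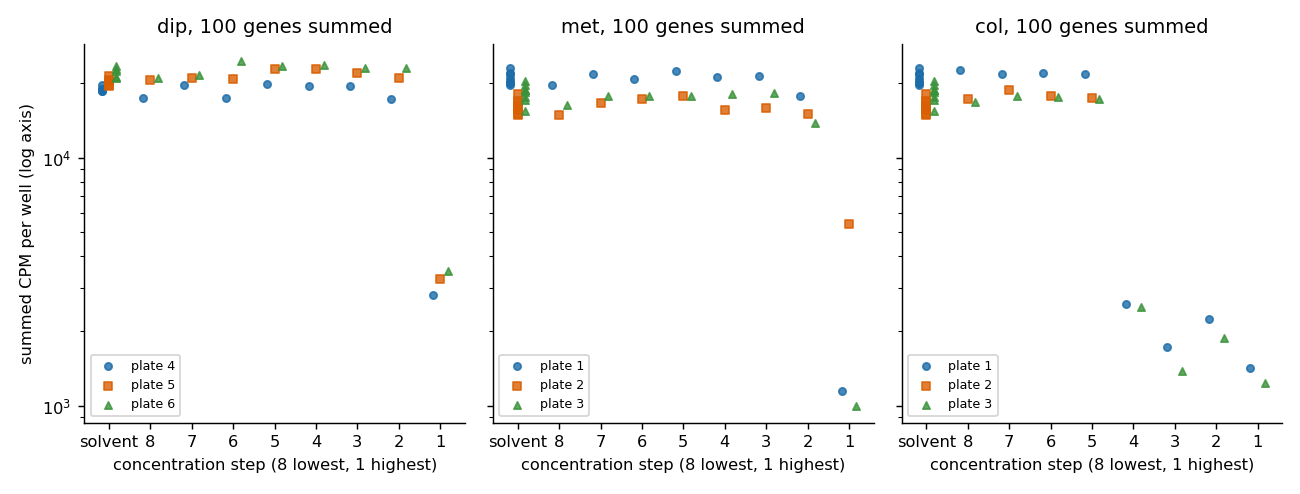
Summed level of the 100 genes in each kept well (CPM, log axis) against the concentration step of dip, met and col, with solvent wells at the low end and plates by colour and shape. The sum drops between conc 2 and conc 1 for dip and met and between conc 5 and conc 4 for col, where the 2 kept wells per step lie between 1383 and 2563 CPM at conc 2 to 4.

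The median L of the 100 genes was -2.32 at dip conc 1, -2.76 at met conc 1 (-3.36 without replicate 2) and -3.30 at col conc 1, against 0.06, -0.33 and -0.80 over all 5223 eligible genes. All 100 had an L under -1 in each group, as the choice of the genes implies. Of the eligible genes 15.9%, 31.4% and 44.9% did. The least lowered of the 3 groups was dip for 73 genes and met or col for the others.

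These ratios are coarse where few counts stand behind them. A pooled group of 2 col wells held 71655 counts, so that 1 count was worth 14.0 CPM, whereas 1 count was worth 8.11 CPM at met conc 1 and 1.91 CPM at dip conc 1. No count was found for 63 of the 100 genes at col conc 1, for 42 at met conc 1 and for 5 at dip conc 1. With genes at 0 set to a floor of 3 counts over the group, the median log2 ratio to solvent was -2.95 for dip, -2.41 for met and -1.32 for col, so the order of the 3 medians turns with the depth and no chemical can be called the strongest. A solvent level of 300 CPM or more in both solvent sets was found for 21 of the genes. Their median level was 18.8% of solvent at dip conc 1, 14.1% at met conc 1 and 7.68% at col conc 1. Every one of the 21 was under 50% in all 3, as the choice of the genes implies.

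ENSOMYG00000023330 had the lowest maximum of L (-3.50). Its level was 6.98, 11.2 and 8.90 CPM in the dip conc 1 wells, against 78.1, 171 and 243 CPM (lowest, median and highest) in the 15 solvent wells. It was 0, 29.7 and 0 CPM in the met wells, the 29.7 being 1 count in replicate 2, and 0 in both col wells, against 0, 122 and 242 CPM in the 24 solvent wells. The dip wells do not overlap with solvent, while the met and col wells overlap with a solvent well in which no count was found. ENSOMYG00000046038, second by the same measure (-3.46), is the better measured of the pair because its solvent level is higher. It had 41.9, 63.6 and 26.7 CPM in the dip wells, against 469, 598 and 655 CPM in the 15 solvent wells. In the met wells it had 52.9, 59.4 and 0 CPM and in the col wells 0 and 63.3 CPM, against 383, 561 and 1111 CPM in the 24 solvent wells. The groups do not overlap for it in any of the 3 chemicals. Both genes were chosen on the values of these same wells, so their separation from solvent describes the choice and no test is read from it.

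The next 10 genes by that measure were ENSOMYG00000009003, ENSOMYG00000028890, ENSOMYG00000027172, ENSOMYG00000020616, ENSOMYG00000018706, ENSOMYG00000017619, ENSOMYG00000036979, ENSOMYG00000046543, ENSOMYG00000027622 and ENSOMYG00000044659, with maxima of L between -3.28 and -2.72. They differ in how well they were measured. ENSOMYG00000028890 and ENSOMYG00000044659 had no count in any of the 8 wells, against pooled solvent levels of only 38.2 and 28.0 CPM in the 24-well set. ENSOMYG00000027172 and ENSOMYG00000027622 had pooled solvent levels of 417 and 363 CPM there, and their pooled levels of 8.11 and 48.7 CPM at met conc 1 rest on counts in 1 well and in 3 wells.

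At the edge of the set the values change little. The last members, ENSOMYG00000034857, ENSOMYG00000005995, ENSOMYG00000034133 and ENSOMYG00000041428, had maxima of L of -1.94. The first genes outside it, ENSOMYG00000035295, ENSOMYG00000043606, ENSOMYG00000032172 and ENSOMYG00000021274, had maxima of -1.92, -1.92, -1.91 and -1.91. Between 69 and 87 of the 100 genes stayed in the set when the offset, the pooling, the solvent range, the 4 IDs left out or the reference was changed.

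At col conc 4, 3 and 2, whose wells were not used to choose the genes, the 100 genes were again low. The summed level was 2563 and 2503 CPM at conc 4, 1735 and 1383 CPM at conc 3 and 2232 and 1882 CPM at conc 2, against 16729 to 22469 CPM in the 9 col wells at conc 6 to 8. None of the 6 wells came near the low-concentration wells. Relative to conc 6 to 8 on the same plate, they stood at 7.88% to 14.5%. At conc 5, a 3-fold step below conc 4, the sum was 21688, 17429 and 17284 CPM, which is 98.5%, 97.6% and 99.8% of conc 6 to 8 on the same plates, and the pooled ratio was under -1 for 3 of the 100 genes, where 9.76% of the eligible genes were.

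Of the 44 genes of the set that passed the filter on low counts, 33 fell at col conc 4 relative to conc 6 to 8, where 16.3% of the 1598 genes tested fell (edgeR's quasi-likelihood test, Benjamini-Hochberg FDR below 0.05). At conc 3 it was 36 of 44, beside 20.3%, and at conc 2 it was 32 of 44, beside 20.8%. By edgeR 0 genes of the set were higher in each, while DESeq2 called 1 of the 44 higher at conc 2, beside 13.6% of all genes tested. At conc 5, 0 of 44 fell, beside 0.0626% of all genes, and DESeq2 also called 0. An unadjusted p under 0.05 (edgeR) was found for 2 of the 44 and for 73 of the 1598 genes tested. A gene can pass the filter through the wells where it is high, so the test was repeated on all genes with a count. Then 46, 47 and 42 of the 100 fell at conc 4, 3 and 2, beside 1.47%, 1.84% and 1.94% of 31807 genes. This background takes in every gene with a count, whereas the set was limited to a solvent level of 20 to 1000 CPM. The shares are therefore not of like genes, and the size of the contrast cannot be read from them. With RLE scaling the median change of all genes tested moved to -0.32 at conc 4, against -0.15 with TMM, and that of the set to -2.82, against -2.64. Of the 44 genes, 37 fell with RLE scaling, against 33 with TMM. As the median of all genes tested moved down as well, the higher count is not read as a result about the set. In all, 29 of the 44 genes tested fell at each of conc 4, 3 and 2, and 39 of the 44 fell at one or more of them. No share over all genes is given for a fall at each or at any of these concentrations. The shares at the single concentrations, 16.3% to 20.8%, are not a like background, so these 2 counts only describe the set. Over all 88 comparisons that shared no well with the choice, 111 of 6326 tests on genes of the set were falls, all but 10 of them at col, where 0.431% of 279055 tests over all genes were.

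These calls rest on 2 wells per concentration. Without replicate 1, 23 of 53 genes tested fell at conc 3, beside 9.02% of all genes tested, and 20 of 53 at conc 2, beside 9.53%. Without replicate 3, 16, 23 and 16 of 54 fell at conc 4, 3 and 2, beside 3.96%, 6.30% and 4.67%. In those fits the lone col well is taken to vary like the other groups. With every col well thinned to the smallest total, 30 genes of the set could be tested and 12, 20 and 19 fell at conc 4, 3 and 2, beside 11.3%, 17.2% and 17.9% of 691 genes.

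Without a filter or a test, the pooled level was lower than at conc 6 to 8 by a log2 ratio under -1 for 95, 97 and 92 of the 100 genes at col conc 4, 3 and 2, where 38.2%, 44.0% and 48.6% of the eligible genes were. The ratio was under -1 at all 3 concentrations for 87 of the 100 and for 20.3% of the eligible genes. It was above 1 at conc 2 for 1 gene of the set, ENSOMYG00000028889, and for 12.4% of the eligible genes. The ratios of ENSOMYG00000028889 were -0.22, -0.52 and 1.08 at conc 4, 3 and 2. No count was found for 48, 64 and 60 of the 100 genes in these groups, and 35 had none in any of the 8 kept wells at conc 1 to 4. The fitted medians of -2.64, -3.37 and -3.46 at conc 4, 3 and 2 depend on such genes. Genes at 0 also enter the counts of 95, 97 and 92. With genes at 0 set to the floor of 3 counts, the median log2 ratio of all 100 genes was -1.60, -1.29 and -0.78 at conc 4, 3 and 2. The size of the median fall at a single concentration is therefore not fixed by these counts. In the 6 wells of conc 2 to 4 pooled, where the floor is lower, the median was -2.48. In the same pool the 21 genes of 300 CPM or more stood at 2.13% to 17.6% of conc 6 to 8, with a median of 9.79%.

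**Figure D2:**
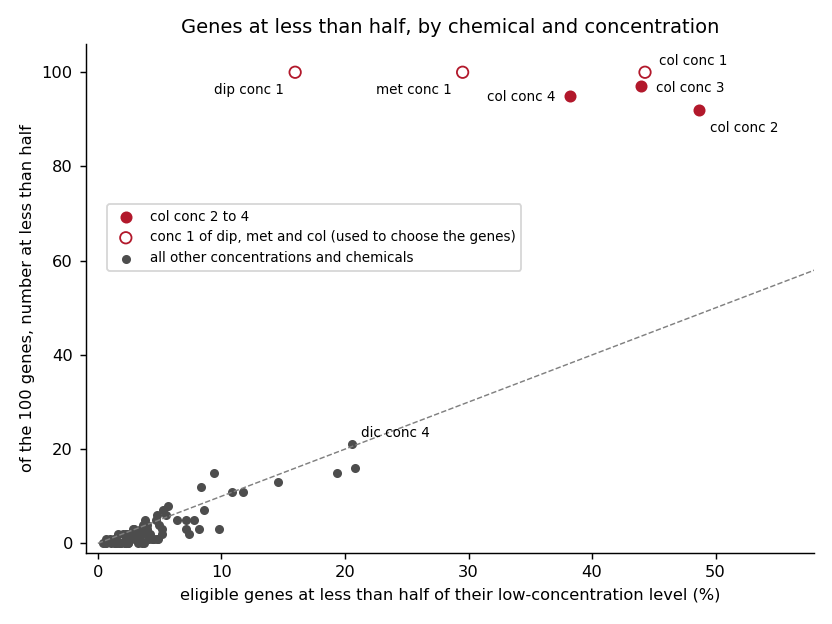
For each chemical and concentration, the number of the 100 genes (vertical axis) and the percentage of the 5223 eligible genes (horizontal axis) whose pooled level was under 50% of that at the chemical's low concentrations (log2 ratio of CPM + 5 under -1), with equal shares on the dashed line. Col conc 2 to 4 lie at 92 to 97 of 100, beside the conc 1 groups that chose the genes, which have 100 of 100 at 16.0%, 29.5% and 44.3% of the eligible genes for dip, met and col, and the other 85 comparisons reach at most 21.

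The 4 genes of the set with the highest solvent level show the col step well by well. ENSOMYG00000039961 had 88.4 and 97.8 CPM at col conc 4, 30.4 and 104.4 CPM at conc 3 and 77.0 and 41.8 CPM at conc 2, against 729, 839 and 1177 CPM (lowest, median and highest) at conc 6 to 8. The groups are far apart, and at conc 5 its wells, at 1138, 658 and 960 CPM, were about at the low-concentration level. The fitted log2 changes were -2.77 ± 0.41, -3.12 ± 0.46 and -3.43 ± 0.52 (SE) at conc 4, 3 and 2, with edgeR adjusted p-values of 2.13e-05, 2.19e-05 and 4.12e-05.

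ENSOMYG00000042152 had 118 and 97.8 CPM at col conc 4, 213 and 0 CPM at conc 3 and 77.0 and 125 CPM at conc 2, against 555, 987 and 1183 CPM at conc 6 to 8. ENSOMYG00000031710 had 88.4 and 274 CPM at conc 4, 122 and 0 CPM at conc 3 and 0 and 125 CPM at conc 2, against 739, 978 and 1194 CPM at conc 6 to 8. ENSOMYG00000007720 had 58.9 and 58.7 CPM at conc 4, 91.3 and 0 CPM at conc 3 and 38.5 and 83.6 CPM at conc 2, against 555, 759 and 1089 CPM at conc 6 to 8. In none of the 3 genes did a well at conc 2 to 4 reach the lowest well at conc 6 to 8. Taken 1 concentration at a time, that was so for 66, 70 and 69 of the 100 genes at conc 4, 3 and 2. It was so for 19.9%, 24.4% and 28.1% of the eligible genes. The remaining genes of the set overlapped with the wells at conc 6 to 8. The set had a median solvent level of 83.9 CPM in the 24-well set, against 48.7 CPM over the eligible genes, so the shares are not of like genes. The fitted log2 changes of the 3 genes lay between -3.65 and -1.81 and all passed the FDR. The smallest was that of ENSOMYG00000031710 at conc 4, -1.81 ± 0.44 (SE; edgeR adjusted p = 0.00295). As 1 count was worth 19.6 to 41.8 CPM in these wells, the values 0 and 77.0 CPM differ by 2 counts, and the order of conc 4, 3 and 2 within a gene cannot be read.

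**Figure D3:**
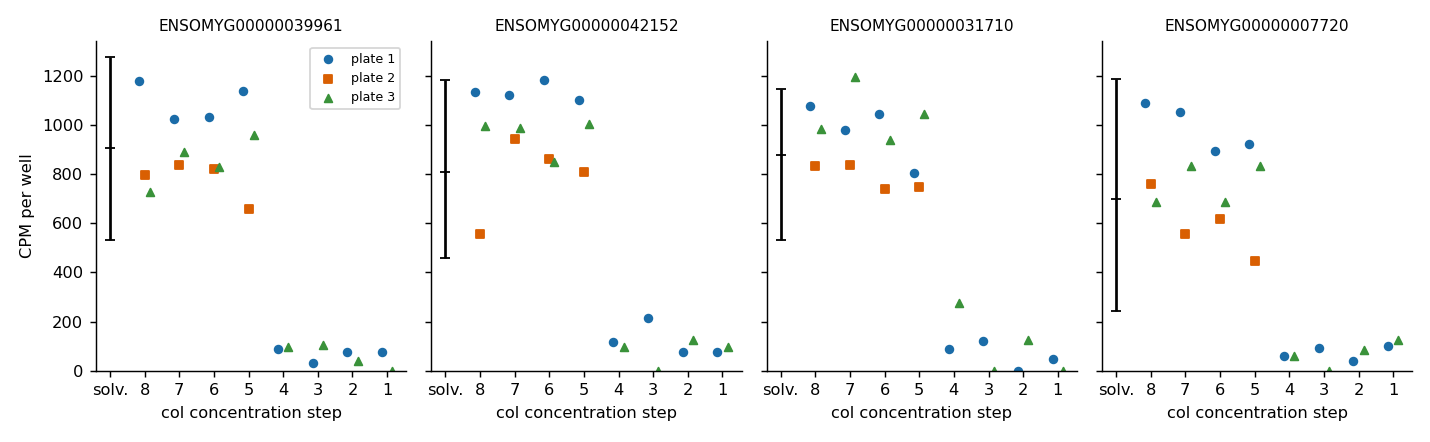
CPM per well of the 4 genes of the set with the highest solvent level, against the col concentration step, with the median and range of the 24 solvent wells at the low end. In each gene the wells at conc 1 to 4 lie at 274 CPM or less, and those at conc 5 to 8 at 448 CPM or more.

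The genes that fell in the most comparisons sharing no well with the choice did so in 4, and the 6 of them with the largest summed change were ENSOMYG00000018706, ENSOMYG00000033460, ENSOMYG00000012077, ENSOMYG00000046038, ENSOMYG00000007720 and ENSOMYG00000011399, at col conc 4, 3 and 2 and at dic conc 4. ENSOMYG00000018706 had no count in any well of col conc 4, 3 or 2, against 80.4, 167 and 211 CPM (lowest, median and highest) at conc 6 to 8. Against a floor of 3 counts over the group it was at least 4.47-fold lower at conc 4, 3.74-fold at conc 3 and 2.62-fold at conc 2. ENSOMYG00000033460, with no count there either, had 74.01, 144 and 210 CPM at conc 6 to 8 and, at the same pooled level of 158 CPM there, the same bounds.

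ENSOMYG00000012077 had 29.5 and 58.7 CPM at col conc 4, 0 and 52.2 CPM at conc 3 and 0 in both wells at conc 2, against 269, 425 and 655 CPM at conc 6 to 8. ENSOMYG00000046038 had 58.9 and 19.6 CPM at conc 4, 60.9 and 26.1 CPM at conc 3 and 0 and 41.8 CPM at conc 2, against 481, 615 and 926 CPM at conc 6 to 8. ENSOMYG00000011399 was detected in all 6 wells, at 41.8 to 91.3 CPM, against 467, 673 and 1149 CPM at conc 6 to 8. Every one of the 6 wells lay below every well at conc 6 to 8 for each of the 6 genes. The 6 genes were picked on falls that include those in these same wells, so their separation describes the choice and is no test. With each concentration taken alone, 19.9%, 24.4% and 28.1% of the eligible genes were separated in this way at conc 4, 3 and 2. Pooled over conc 2 to 4, ENSOMYG00000046038 stood at 4.98% of conc 6 to 8 (exact Poisson 95% interval 2.00% to 10.3%, counting error only) and ENSOMYG00000011399 at 11.0% (6.28% to 17.8%).

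With dip and met a fall of the size seen at conc 1 was not found at lower concentrations, though at met conc 2 the sum was somewhat lower. At dip conc 2 the summed level of the 100 genes was 17239, 21002 and 22988 CPM, which is 95.1%, 101.4% and 103% of dip conc 6 to 8 on the same plates, and from conc 3 to 5 it was 103% to 110%. The pooled ratio was under -1 for 1 of the 100 genes, where 2.47% of the eligible genes were. By edgeR 0 of the 79 genes tested fell at dip conc 2, where 0% of 3564 genes tested did. An unadjusted p under 0.05 was found for 7 of the 79 and for 189 of the 3564. In counts simulated with the same dispersion for every gene and no plate effect, this fit recovered 64% of 4-fold and 11% of 2-fold changes. The 0 falls therefore do not exclude small ones. DESeq2 also called 0. The median fitted change of the 79 was 0.00, and 3 genes were higher, where 0.224% of all genes tested were. ENSOMYG00000039961 illustrates the step, with 749, 944 and 1093 CPM (lowest, median and highest) at dip conc 6 to 8, 900, 968 and 979 CPM (lowest to highest) at conc 2, and 140, 160 and 191 CPM at conc 1.

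At met conc 2 the sum was 17783, 14930 and 13739 CPM, or 86.3%, 92.1% and 79.7% of met conc 6 to 8 on the same plates, lower on each of the 3 plates. From conc 3 to 5 it was 95.6% to 110%. By edgeR 0 of the 76 genes tested fell at met conc 2, where 0% of 3364 did, and DESeq2 called 0. An unadjusted p under 0.05 (edgeR) was found for 2 of the 76 and for 196 of the 3364. In counts simulated in the same way this fit recovered 60% of 4-fold and 10% of 2-fold changes. The fitted change was negative for 59 of the 76, with a median of -0.20, against 0.004 over the 3364 genes tested. The pooled ratio was under -1 for 4 of the 100 genes, where 3.92% of the eligible genes were, a share near the background.

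**Figure D4:**
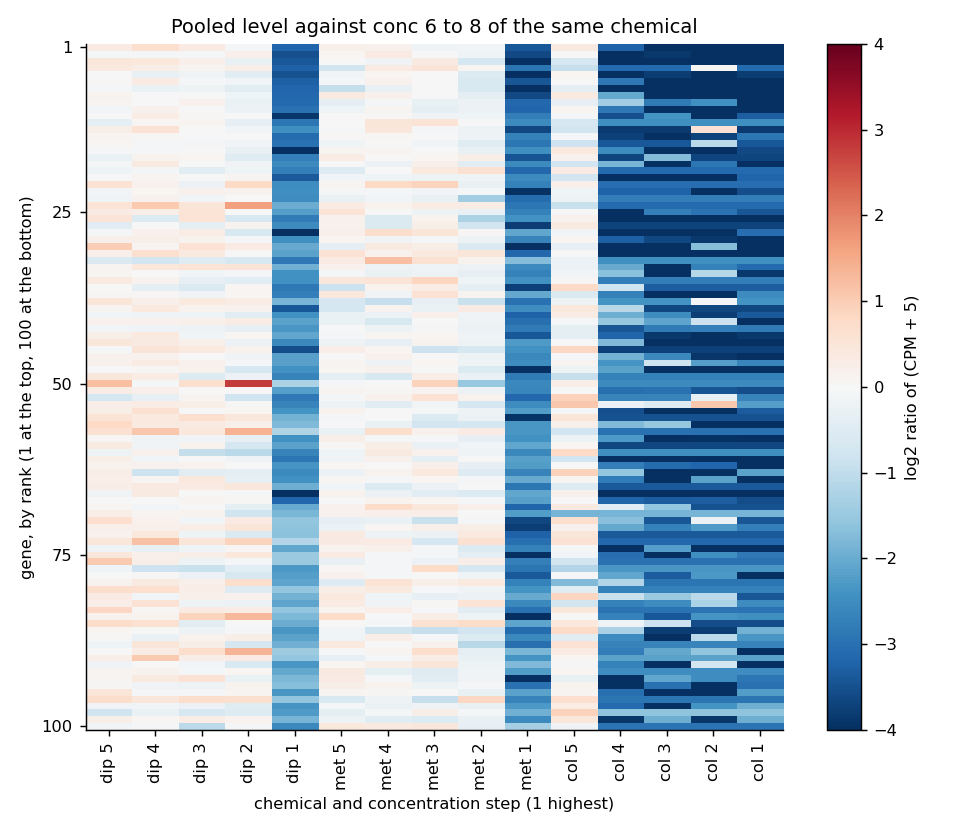
Pooled log2 ratio of CPM + 5 of each of the 100 genes (rows, by rank) at conc 5 to 1 of dip, met and col against conc 6 to 8 of the same chemical. The columns dip 1, met 1 and col 1 were used to choose the genes. Col 4, 3 and 2 are of similar depth of colour, with medians of -2.83, -3.19 and -3.10, and the others centre near 0. These 3 medians depend on genes with no count. With such genes set to a floor of 3 counts they were -1.60, -1.29 and -0.78.

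In the other 16 chemicals few genes of the set were called. At the highest concentration that could be tested, 0 of 1168 pairs of gene and chemical fell (edgeR), where 0.0348% of 51771 pairs over all genes did, and DESeq2 called 0. An unadjusted p under 0.05 (edgeR) was found for 75 of the 1168 pairs and for 3018 of the 51771. With the plate as a replicate block 2 of 1168 fell, 1 for smet conc 2 and 1 for thx conc 1, where 0.379% of the pairs over all genes fell. For clp and smet that concentration was conc 2, since the conc 1 wells held too few counts. The set was therefore not tested at conc 1 of clp and smet, where some of the wells left out had a low sum. Over 85 comparisons, leaving out conc 1 of dip, met and col and col conc 2 to 4, the pooled ratio was under -1 for a median of 2 of the 100 genes. Together that is 3.19% of 8500 pairs, where 4.56% of the pairs over the eligible genes were under -1, and the median ratio of the set lay between -0.35 and 0.16. In the 14 wells of dip, met and col conc 1 and col conc 2 to 4 the sum was 1004 to 5405 CPM, against 10969 to 25063 CPM in the 473 other kept wells.

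Outside col, genes of the set fell in 2 comparisons, dic conc 4 and cln conc 3. At dic conc 4, a middle concentration whose wells held 14.6% of their library's median total as a group median, 9 of 91 genes fell, where 4.23% of 5739 genes did. Of these 9, 7 also fell at col, where 39 of the 44 genes of the set tested fell at one or more of conc 4, 3 and 2. How many of the 9 were tested at col is not given. No share over all genes is given for a fall at both dic and col, so the 7 only describe the set. The count was 17 of 100 without a filter, beside 1.13% of 35346 genes, a background that again takes in genes of any level and is not of like genes. Conc 1, 2 and 3 of dic showed no fall of a gene of the set. The count at conc 4 changed with the fit. With RLE scaling in place of TMM the median change of all genes moved to 0.09, against -0.36 with TMM, that of the set to -0.22, against -0.66, and 1 gene fell. With all wells kept 1 of 83 genes fell, beside 0.408% of all genes tested, and with thinned wells 0 of 27. No share over all genes is given for the counts with RLE scaling and thinned wells, so they are not read as results about the set. Without replicate 2, 1 of 82 fell, beside 0.159%, and without replicate 1, 5 of 97, beside 2.04%. The pooled ratio was under -1 for 21 of the 100 genes at dic conc 4 and for 20.6% of the eligible genes, a share near the background. ENSOMYG00000012077 had 61.4, 75.4 and 195 CPM at dic conc 4 (lowest to highest). At dic conc 6 to 8 it had 355, 393 and 422 CPM (lowest, median and highest). Its log2 change with TMM was -2.27 ± 0.38 (SE, edgeR adjusted p = 0.000325). The 3 wells at dic conc 4 together held 84815 counts after the 4 IDs, so its values there rest on few counts. Whether it was also called with RLE scaling or DESeq2 is not given. At cln conc 3 a single gene of the set, ENSOMYG00000039355, fell by 1.15 ± 0.21 on the log2 scale (SE, edgeR), and it was the 1 gene called lower there of 2594 tested, or 0.0386%.

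Rises were few, and they are given beside the level at the same plate position on other plates. Over 88 comparisons that shared no well with the choice, 6 genes of the set rose in 12 of 6326 tests, where 0.362% of 279055 tests over all genes were rises. The wells of each of these concentrations sat at the same position on their 3 plates, so concentration and position cannot be told apart within a chemical. On the plates of the other chemical set, 1 to 3 kept wells with another chemical or solvent were at that position, for 7 of the 12 calls a single well. In 11 of the 12 calls 75.8% to 100% of the other wells of those plates lay below the lowest such well, and in the remaining call 27.7% did. These are descriptions of few wells, with no test.

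The 3 genes higher at dip conc 2 are given in full. ENSOMYG00000013264 had 103.7, 163 and 197 CPM (lowest to highest) at dip conc 2, position G11, against 0, 14.3 and 58.3 CPM (lowest, median and highest) at dip conc 6 to 8, a log2 change of 3.17 ± 0.52 (SE; edgeR adjusted p = 0.000875). A solvent well at G11 of another plate had 114 CPM of it, more than 219 of the 224 other wells of those plates, whose median was 20.5 CPM. ENSOMYG00000011469 had 336, 622 and 672 CPM at dip conc 2 and 621 CPM in the solvent well at G11, above 222 of the 224 others. ENSOMYG00000005032 had 992, 1432 and 1458 CPM at dip conc 2 and 784 CPM in that solvent well, above 199 of the 224 others.

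ENSOMYG00000005032, a gene of the set that fell at col conc 4, 3 and 2 and at dic conc 4 and rose in 5 other comparisons, had the highest levels at a few positions on plates of both sets. The median was 1517 CPM at F10, 1354 CPM at C10, 1325 CPM at C07 and 1210 CPM at E12, against 588 CPM over all kept wells. At F10, 2 of the 4 wells were those called higher at dic conc 3, and at E12, 3 of the 4 were those called higher at mbz conc 4. The medians at F10 and E12 are therefore partly set by these calls. In solvent it had 1640 and 2288 CPM at C10 and F10 of plate 1, and 1125 and 1129 CPM at C10 and F10 of plate 3. At B10 of the same plates it had 771 and 579 CPM. It was called higher at cln conc 3, dic conc 3, dip conc 2 and 3 and mbz conc 4. Of these, dip conc 3 (position F11) is the exception among the 12 calls, with 352 CPM in the solvent well at F11. ENSOMYG00000027322 and ENSOMYG00000023047, which rose at dic conc 3 (F10) by log2 changes of 1.68 ± 0.34 and 1.58 ± 0.31 (SE, edgeR), had 223 and 233, and 161 and 167, CPM in 2 solvent wells at F10, against medians of 87.8 and 123 CPM at the other positions of those plates. Both wells were above all 223 others for ENSOMYG00000027322 and above 169 of the 223 for ENSOMYG00000023047. ENSOMYG00000005505 rose at dic conc 1 (H10) by 1.07 ± 0.17 and had 791 and 934 CPM in 2 solvent wells at H10, above all 223 other wells of those plates.

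**Figure D5:**
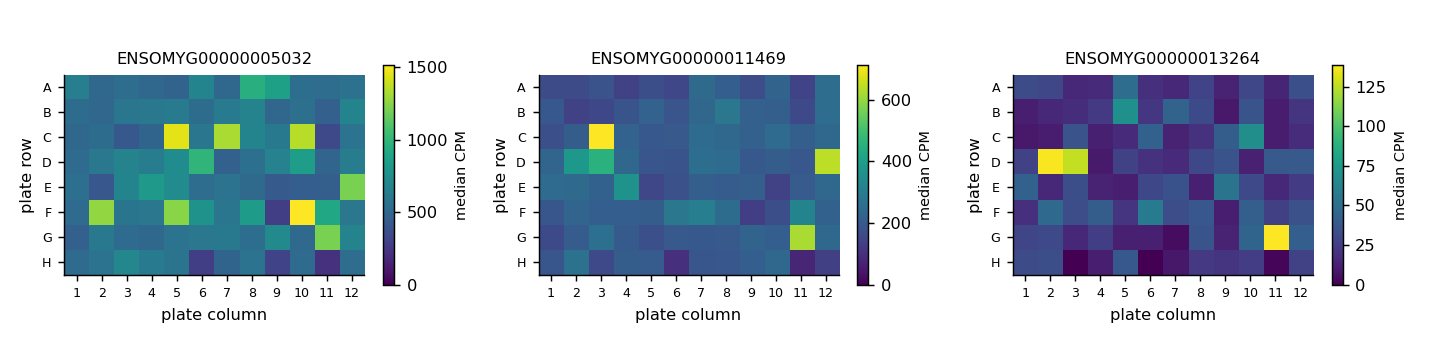
Median CPM over the kept wells of up to 6 plates at each plate position, for the 3 genes of the set that were higher at dip conc 2 (position G11), each on its own colour scale. A few positions stand out in each gene, G11 in all 3, C05, C07, C10 and F10 among others in ENSOMYG00000005032, C03 and D12 in ENSOMYG00000011469 and D02 and D03 in ENSOMYG00000013264. At G11, 3 of the 4 wells are the dip conc 2 wells for which the genes were picked, so its high median follows from that choice. Wells of other calls are among those at F10 of ENSOMYG00000005032 and D12 of ENSOMYG00000011469.

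The positions of the low wells were also looked up on the plates of the other chemical set. At H11, the position of dip conc 1, a single solvent well was found there, and its summed level of the 100 genes was 16877 CPM. It was 18978 to 22951 CPM at H06, the position of met conc 1, in 3 per conc 1 wells. At E09 to H09, the positions of col conc 4 to 1, it was 16275 to 23340 CPM in ampa wells, 3 at each position.

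In solvent the set varied with the plate. The sum averaged 20884 ± 1161, 16095 ± 1068 and 18246 ± 1542 CPM on plates 1, 2 and 3 (SD, n = 8 wells each) and 18909 ± 452, 20162 ± 774 and 22095 ± 1040 CPM on plates 4, 5 and 6 (SD, n = 5 wells each). The wells of plate 2, at 14793 to 18074 CPM, lay below all wells of plate 1, the lowest of which had 19569.5 CPM. The solvent levels of single genes ranged from 20.7 to 939 CPM in the 24-well set, with a median of 83.9 CPM, against 48.7 CPM over the eligible genes. A high level makes a low L easier to reach, since 5 CPM is added to each value.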

How the data were processed

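The deposited tables give whole-number counts of each gene ID in each well, without scaling by the authors. Per the labels' protocols, wells were tagged and pooled into 24 libraries with a UPXome kit, while aligner, counter and annotation were not given in the sources used here. Per the design text, the 3 replicates of a chemical are 3 passages, 1 per plate. The p-values rest on the spread between wells of these cultures. Wells of a plate were taken as independent, except with the replicate block. Of the columns, 381 repeated another, with 0 differing, and no replicate pair agreed within sampling noise (smallest chi-square per degree of freedom 1.66 in 863 pairs). A further 24 wells in the labels were not analysed here.

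The members, lists and tests were chosen with earlier results of these data known. The named genes were the 12 with the lowest maximum of L, the 4 on each side of the edge, the 4 with the highest solvent level, the 6 that fell most often and the 4 with the largest rise; other IDs were named after their values were seen. Lists of pathway genes and cell markers could not be applied without gene names.

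For each chemical edgeR 4.0.16 (R 4.3.3; quasi-likelihood test, TMM scaling, filterByExpr) compared a concentration with the mean of the chemical's own conc 6 to 8 (dca, conc 4 and 5, with the plate set as a term), two-sided, with Benjamini-Hochberg adjustment over all genes tested. Conc 1 of dip, met and col was left out of these fits. DESeq2 1.42.0, RLE scaling, no filter, all wells kept, thinned wells, other references, a replicate block and leaving out each replicate were alternatives. The passages pair wells by plate: over 1215 genes, the deviations of wells from their group means had a median r of 0.244 within a plate (54 pairs) and of -0.105 between plates (108 pairs). Figures used Python 3.11.15, pandas 2.3.3 and matplotlib 3.10.9. Intervals are exact Poisson at 95% and, like floors of 3 counts, cover counting error only; a pooled group's floor was 5.74 CPM at dip conc 1, 24.3 CPM at met conc 1 and 41.9 CPM at col conc 1. Scripts were tested on simulated counts, with the same dispersion for every gene and no plate effect. Only genes above a low expected count were changed. The recovered shares hold for that setting and were not tested for the genes of the set. At col, dip and met conc 2 and dic conc 4, 47%, 64%, 60% and 23% of 4-fold changes were recovered. For 2-fold changes it was 5%, 11%, 10% and 0%, and 3.70%, 2.60%, 2.78% and 11.5% of calls were false.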

Additional observations from a re-analysis of the deposited data

Results flagged for a closer look

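In 1 of 11 groups of 4 to 10 wells a single well lay apart from the others in the summed level of the 100 genes, by Dixon's test, which picks out about 1 in 20 groups by chance. The replicate 2 well of dca conc 4 had 14929 CPM, and the other 5 wells had 18711 to 20766 CPM. This well sat on plate 2, where the solvent wells averaged 16095 ± 1068 CPM (SD, n = 8), and its total was 67432 counts.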

How the results depend on the processing

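The falls at col conc 4, 3 and 2 kept their direction and stayed within 1.5 times with the replicate block, DESeq2, RLE scaling, no filter, all wells kept and other references, and those of col conc 5, dip conc 2 and met conc 2 stayed at 0 under each. With wells thinned to the smallest total, 12, 20 and 19 genes of the set fell at col conc 4, 3 and 2 and 0 at dic conc 4, with fewer genes tested. Leaving out each replicate gave 16 to 33, 23 to 37 and 16 to 30 falls at col conc 4, 3 and 2, and 1 to 11 at dic conc 4. At dic conc 4 the main fit had 9 falls, beside 4.23% of all genes tested. The count was 1 with DESeq2, RLE scaling or all wells kept, and 17 without a filter, beside 1.13%. It was 15 against solvent wells and 4 against the lowest concentration. The cause was not tested. Over the 16 other chemicals the 0 falls became 2 with the replicate block and 2 against solvent wells. The replicate block changed no other count of falls of the set by over 1.5 times. It moved calls over all genes, in both directions, to 46 at met conc 2, against 6 without it, to 13 at col conc 5, against 3, to 15 at dip conc 2, against 8, to 447 at dic conc 4, against 295, and to 483 over the 16 chemicals, against 76, where 2 genes of the set were higher, against 1. With wells of 100000 counts or more alone, a setting added after the data were seen, 51 genes fell at col conc 4. More genes of the set than the 44 of the main fit were tested there, so the 51 cannot be set beside the 33. Genes tested and shares over all genes also changed between other settings, so the counts in this section are not alike. Where no share over all genes stands beside a count, it cannot be read as a result about the set. At col conc 2, dic conc 4 and the 16 chemicals the setting of deep wells gave no value, since too few wells are that deep. Wells of col at conc 1 to 4 limit the single genes, since 3 counts in a pooled group of 2 wells are 35.3 to 60.1 CPM.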

Other observations

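In the 14 wells left out for low totals the summed level of the 100 genes differed widely. In replicate 2 of col at conc 4, 3, 2 and 1 the summed level was 3637 CPM (exact Poisson 95% interval 2504 to 5108), 4714 CPM (2918 to 7206), 2738 CPM (1415 to 4782) and 2228 CPM (962 to 4391), all below the lowest of the 473 other kept wells, at 10969 CPM. At clp conc 1 the 3 wells had 1338 CPM (793 to 2114), 11100 CPM (7687 to 15512) and 7916 CPM (4090 to 13827). The first of them also lay below 10969 CPM with its whole interval, and the last by its value alone. At smet conc 1 the wells had 14399 CPM (10653 to 19036), 3083 CPM (1132 to 6711) and 2573 CPM (531 to 7519). The last 2 of them also lay below 10969 CPM with their whole intervals. The other 4 wells had 11249 CPM (9733 to 12935) at dca conc 1, 26193 CPM (22446 to 30387) at dic conc 3, 15375 CPM (13419 to 17536) at smet conc 3 and 14870 CPM (12783 to 17201) at thx conc 1. These wells entered no comparison except where all wells were kept.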
